A study of Homo sapiens with 9 samples.

Results

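The genes described here are the semaphorins, the plexins and the neuropilins of MEL624, a human melanoma cell line, as measured by PRO-seq. They are defined by name, with no measured value in the rule: protein-coding genes whose symbol starts with SEMA and a number or with PLXN, together with NRP1 and NRP2. All 31 such genes, 20 semaphorins, 9 plexins and 2 neuropilins, were found among the 58336 identifiers of the deposited table. PRO-seq (precision run-on sequencing) maps RNA polymerases engaged in transcription, by letting permeabilized cells extend their nascent RNA with a labelled nucleotide. The groups, each of 3 biological replicates, were PCIF1 KO clone 1, PCIF1 KO clone 2 and control cells, which are wild type and carry a random sgRNA. All were grown in DMEM with serum and received Drosophila S2 cells as a spike-in, and each knockout group is 1 clone. PCIF1 is the enzyme that methylates an adenosine placed next to the mRNA cap.

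Semaphorins are guidance cues, first known from growing axons, that signal to cells through plexin receptors on the cell surface. Class 3 semaphorins are secreted, and most of them bind a neuropilin, which forms a holoreceptor with a plexin of the A group. Classes 4, 5 and 6 span the membrane, and class 7 is held by a lipid anchor. Plexins act on small GTPases through a GTPase-activating domain inside the cell and so alter adhesion and the cytoskeleton. Neuropilins also bind vascular endothelial growth factors (VEGFs). In melanoma and in the neural crest, from which melanocytes arise, the family is known for its part in migration.

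PCIF1 acts on transcripts whose first base is an adenosine. The sequence up to the start is therefore shown for 6 members that stood apart from control in at least 1 clone and have a RefSeq window, chosen after their values were seen. The sequences come from RefSeq (GRCh38.p14), run 5′ to 3′ in the sense of the gene and end at the annotated start base. Capitals mark the start base and any match, on either strand, to the GC box GGGCGG, the TATA box TATAAA, the E boxes CACGTG and, in another form, CATGTG, or the AP-1 motif TGANTCA. Neighbouring GC boxes may overlap. For SEMA3C, SEMA6D and NRP2, annotated transcripts also begin upstream of the start shown. For SEMA3C and SEMA6D 30 bases are given, and for the others 81 bases.
SEMA3C (chr7:80919051-80919080, minus strand): cgcccccggcctccggccactttccattcA
SEMA6C (chr1:151146631-151146711, minus strand): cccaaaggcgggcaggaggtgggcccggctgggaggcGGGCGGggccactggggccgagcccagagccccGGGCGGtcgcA
SEMA6D (chr15:47717476-47717505, plus strand): cgtgcatcggtttgttttgctcctgctctG
PLXNC1 (chr12:94148497-94148577, plus strand): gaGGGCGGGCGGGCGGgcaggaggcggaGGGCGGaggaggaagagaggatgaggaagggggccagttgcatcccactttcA
NRP2 (chr2:205682421-205682501, plus strand): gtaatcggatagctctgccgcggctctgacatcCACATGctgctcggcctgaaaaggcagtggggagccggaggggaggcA
PLXNA2 (chr1:208244384-208244464, minus strand): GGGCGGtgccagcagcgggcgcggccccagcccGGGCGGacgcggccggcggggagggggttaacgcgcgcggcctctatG

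The annotated start base was A for 4 of these 6 genes, SEMA3C, SEMA6C, PLXNC1 and NRP2, and G for SEMA6D and PLXNA2. SEMA3E, SEMA3F and SEMA4D also stood apart in 1 clone and have a window but are not shown. Their canonical GENCODE transcripts start with A, G and G. Over all 31 members the canonical GENCODE transcript starts with A in 20, with G in 10 and with C in 1. Of the 27 members compared below, 17 start with A, against 46.9% of the compared protein-coding genes. The 17 had a median log2 ratio to control of -0.11 in clone 1 and 0.34 in clone 2, and the 10 that start with G had -0.33 and -0.21. The same medians over all compared protein-coding genes were 0.00 and 0.01 for an A start and -0.02 and -0.03 for a G start. The 0.34 is the value of 1 scarce gene, SEMA3G, whose 20 nearest compared genes had a median of 0.29 in clone 2. The values next to it among the 17 were 0.04 (SEMA6B) and 0.39 (SEMA4G). No difference by start base was tested. RefSeq windows of 300 bases were found for 27 of the 31 members; SEMA3A, SEMA6A, SEMA6B and NRP1 had none. These 27 are not the 27 compared members, and 23 of them were compared. GGGCGG was in the window of 23 of the 27 and of 20 of the 23 compared, against 73.3% of the 10229 compared protein-coding genes with a window. CATGTG, read in NRP2 on the other strand as CACATG, was in 3 of 27, against 6.28%, and CACGTG in 2 of 27, against 10.3%. TATAAA and TGANTCA were in none of the 27 windows, and in 5.18% and 4.21% of windows of compared protein-coding genes.

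The deposited table holds 1 mean per group and no value per library. The values therefore carry no standard deviation, no test could be made, and no difference can be set against replicate error. Levels are mean normalized counts per gene, or the same per kb of gene length where genes are set side by side. The length the authors used lies within 5% of the merged exon length for 29 of the 31 members, while the genes themselves span 9.99 to 590.1 kb, so levels per kb of different genes are rough. A log2 ratio is that of the counts plus 1, and a gene was compared where its mean count over the 3 groups was at least 10. The scatter of genes of similar count between clone 2 and clone 1, on the same log2 scale, served as a yardstick, which also holds true differences between the clones. Its central 95% ran from -1.01 to 1.05 at 10 to 50 counts, from -0.50 to 0.63 at 50 to 200 and from -0.35 to 0.53 at 200 to 1000. In pools of many permeabilized cells, fewer cells transcribing a gene and less transcription per cell cannot be told apart.

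The targeted gene PCIF1 had 269.6 normalized counts in clone 1, 239.3 in clone 2 and 239.5 in control, which does not check the labels, since an edited gene can still be transcribed. Summed over all genes, the counts were 3759168, 3823178 and 3760730, totals that the authors' scaling sets. Of 8 melanocyte and melanoma markers, MITF and PMEL passed the floor of 10 counts. MITF, the lineage transcription factor, had 142.0, 259.2 and 168.5 counts in clone 1, clone 2 and control, and PMEL had 21.3, 23.8 and 48.4. TYR was listed at 0 in all 3 groups and DCT, MLANA and S100B had at most 2.04 counts, so these markers of the lineage were at or near 0. SOX10 had 6.08 counts in clone 2 and was listed at 0 in clone 1 and control. TYRP1 had at most 6.81 counts. Markers of keratinocytes, endothelium and leukocytes had at most 7.22 counts per gene. Of 4 fibroblast markers, PDGFRB had 75.5, 99.99 and 110.7 counts and COL1A1 27.8, 18.4 and 18.0, and COL1A2 and DCN had at most 2.06.

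Transcription per kb differed widely within the family. SEMA7A and SEMA3C were the highest in all 3 groups. SEMA7A, the class 7 semaphorin known as a ligand of PLXNC1, had 123.7 normalized counts per kb in clone 1, 111.1 in clone 2 and 113.0 in control. SEMA3C had 163.4, 180.8 and 83.6 per kb, so that it stood first of the 31 genes in each clone and second in control. SEMA3A, SEMA3B, SEMA3F and NRP1 took places 3 to 6 in every group, at 35.8 to 66.7 per kb. The median over the members was 9.86 per kb in clone 1, 10.3 in clone 2 and 10.8 in control. At the other end lay SEMA5A, SEMA5B, SEMA4A and PLXNA4, which had at most 1.08 per kb in any group. Neighbours in this order cannot be ranked firmly, as there is no spread to set their differences against.

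**Figure D1:**
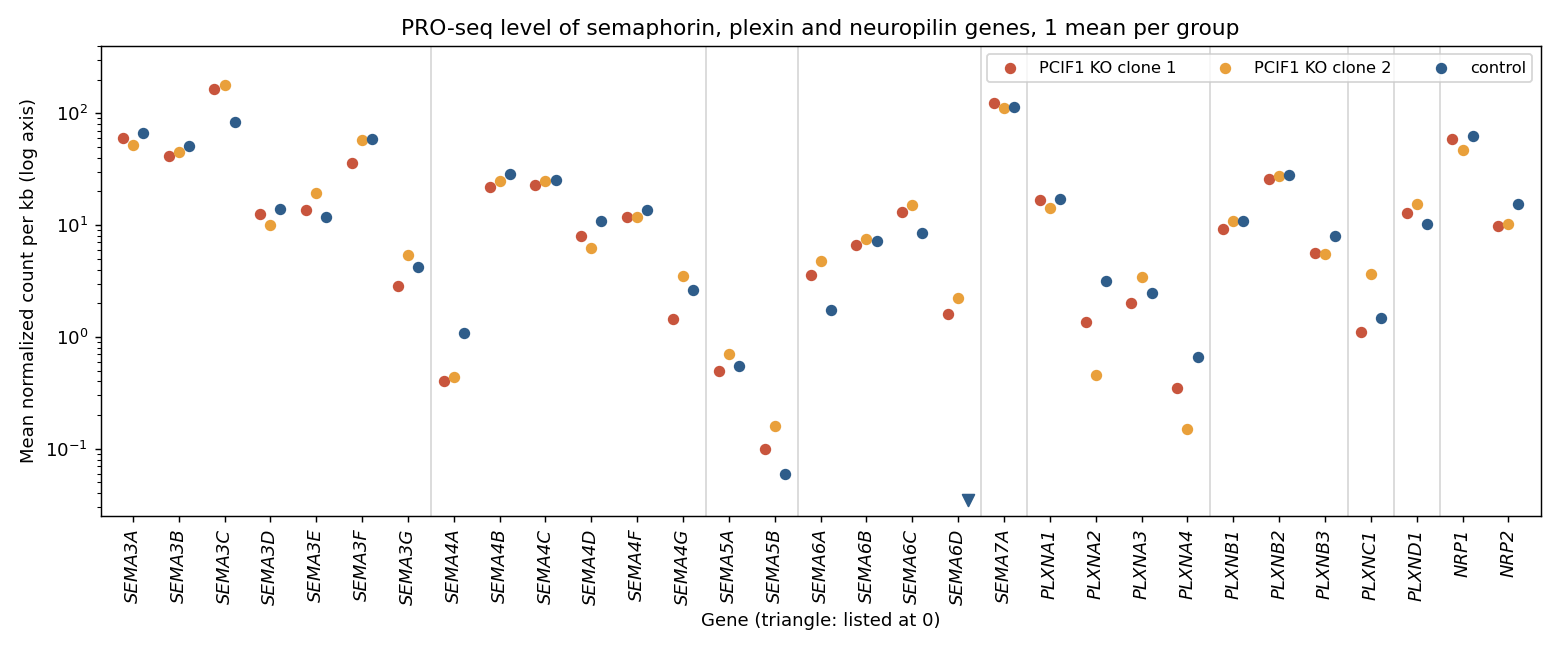
Mean normalized count per kb (log axis) of each of the 31 genes in PCIF1 KO clone 1, PCIF1 KO clone 2 and control, 1 point per group and no error, since 1 mean per group was deposited. The groups lie close together for most genes, and SEMA6D is listed at 0 in control (triangle) and at 1.61 and 2.25 per kb in the clones.

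Of the 31 members, 27 passed the floor. In clone 1, a level of 2-fold or more above control was seen at 1 member and of 2-fold or more below it at 1, where 2.27% and 1.32% of all 17149 compared genes were past these limits. In clone 2 the counts were 4 and 1, where 3.34% and 1.90% of all compared genes were. Of the 12525 compared protein-coding genes, 2.04% were above and 1.27% below in clone 1, and 2.78% and 1.46% in clone 2. The members past 2-fold were SEMA6D and PLXNA2 in clone 1, and SEMA6D, SEMA6A, PLXNC1, SEMA3C and PLXNA2 in clone 2. SEMA6D, listed at 0 in control, passed the floor only through the clones, in which it was high. It is the 1 member above in clone 1 and 1 of the 4 above in clone 2. Its place in these counts therefore follows in part from the floor. The clones share 1 control mean, so their values stand side by side and are no repeats of each other.

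Over the 27 compared members, small differences below control prevailed in clone 1: 20 of 27 were below control in clone 1, with a median log2 ratio of -0.16, where 50.7% of all compared genes were below control and the median was -0.00. In clone 2, 16 of 27 were below control, with a median of -0.025, against 50.4% and -0.00. Of compared protein-coding genes, 51.6% were below control in clone 1 and 50.5% in clone 2. Clone 2 was below clone 1 in 8 of 27 members, with a median of 0.15, where 49.8% of all compared genes and 49.3% of protein-coding ones were below and the median of all was 0.00. Outside the spread between the clones at like count lay 2 members above and 3 below in clone 1, where 4.36% and 4.25% of all compared genes lay, and 6 above and 5 below in clone 2, where 7.12% and 6.78% lay. The 2 above in clone 1 were SEMA3C and SEMA6D, and SEMA6D was also 1 of the 6 in clone 2. As it passed the floor only through the clones, its place in these counts too follows in part from the floor.

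**Figure D2:**
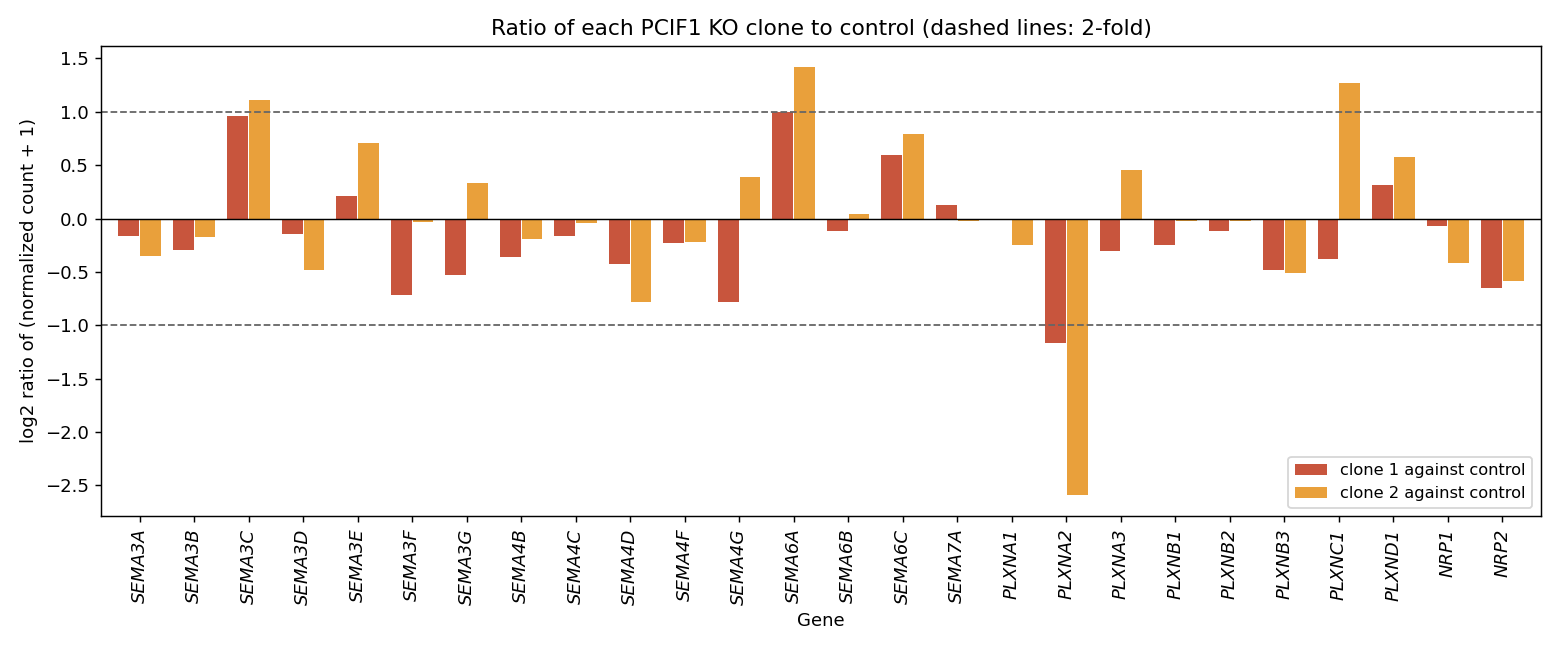
Log2 ratio of (normalized count + 1) to control for clone 1 and clone 2, in 26 compared members, leaving out SEMA6D, which is listed at 0 in control; the dashed lines mark 2-fold. SEMA3C, SEMA6A and SEMA6C stand above control in both clones and PLXNA2 and NRP2 below it. PLXNC1, PLXNA3, SEMA3G, SEMA4G and, with small ratios, SEMA6B and SEMA7A have opposite signs in the clones.

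Among the ligands, the secreted class 3 semaphorins held the largest share of the signal. Their summed counts were 2223 in clone 1, 2429 in clone 2 and 1958 in control. Without SEMA3C the sums ran the other way, at 1199, 1296 and 1433. SEMA3C, a cue that guides neural crest cells into the outflow tract of the heart, had 1024 normalized counts in clone 1, 1133 in clone 2 and 524.1 in control. Each clone thus had about double the control level, with log2 ratios of 0.97 and 1.11, against a yardstick that ends at 0.53 for genes of this count. SEMA3C (ENSG00000075223) lies on chromosome 7, 80742538 to 80922359, minus strand (GRCh38, GENCODE, as all gene positions here).

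SEMA3A, the collapsing factor for growth cones and the classic ligand of NRP1, had 558.4, 488.8 and 624.7 counts in clone 1, clone 2 and control. Its log2 ratios were -0.16 and -0.35, the second just past the lower end of the yardstick. SEMA3B, known as a candidate tumour suppressor, had 238.0, 258.7 and 291.7 counts, below control in both clones by log2 ratios of -0.29 and -0.17. SEMA3D, known from heart and vessel development, had 101.5, 80.1 and 112.4 counts, with ratios of -0.15 and -0.48. SEMA3A, SEMA3B and SEMA3D were thus highest in control, the reverse of SEMA3C.

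SEMA3E, which signals through PLXND1 without needing a neuropilin, had 114.1 counts in clone 1, 161.9 in clone 2 and 98.6 in control. Its log2 ratio was 0.21 in clone 1, inside the yardstick, and 0.71 in clone 2, beyond it. SEMA3F, the ligand of NRP2 (chromosome 3, 50155045 to 50189075, plus strand), was low in clone 1. It had 172.5 counts in clone 1, 279.1 in clone 2 and 285.0 in control, with ratios of -0.72, beyond the yardstick, and -0.03. An antisense gene, SEMA3F-AS1, overlaps it and had 3.92, 9.91 and 11.8 counts; the strand setting of the authors' counting is not given in the sources used here. SEMA3G was scarce, with 14.3, 26.9 and 21.1 counts, and its ratios of -0.53 and 0.34 were inside the yardstick.

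SEMA3C, SEMA3E, SEMA3A and SEMA3D form a group on chromosome 7 within 4.44 Mb, with 6 compared genes in that stretch, 4 of which they are. The other pair, CACNA2D1 and PCLO, encode a calcium channel subunit and a presynaptic scaffold. CACNA2D1 had 176.6, 166.4 and 130.6 counts in clone 1, clone 2 and control, and PCLO 192.1, 185.3 and 191.9. On the other side of SEMA3C, the G protein gene GNAI1 had 172.3, 182.5 and 120.0 counts, log2 ratios of 0.52 and 0.60. Within the group the ratio of clone 2 to control ran from 1.11 at SEMA3C through 0.71 at SEMA3E to -0.35 at SEMA3A and -0.48 at SEMA3D. Around SEMA3C the 20 nearest compared genes had a median of -0.01 in clone 1 and of 0.04 in clone 2, and SEMA3C was the highest of the 21 in both.

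**Figure D3:**
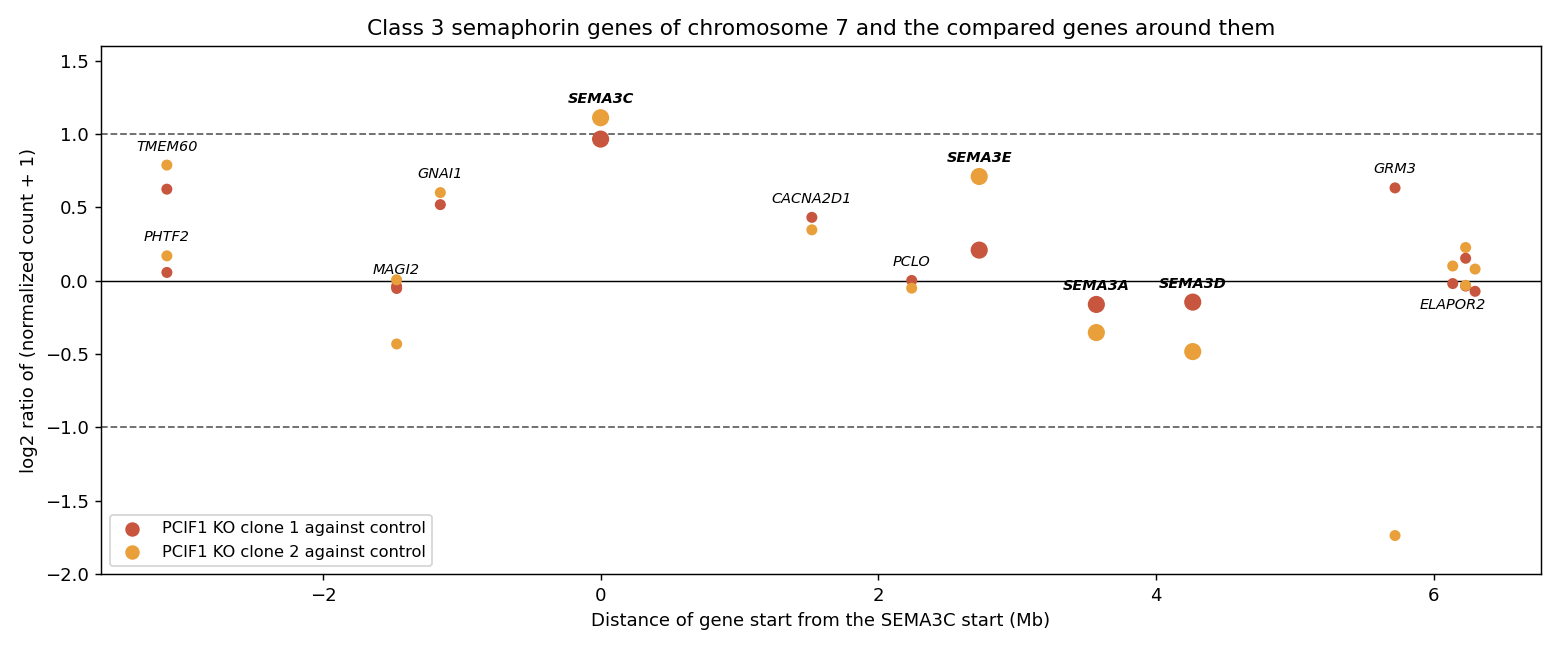
Log2 ratio to control of the class 3 semaphorin genes of chromosome 7 (large points) and of compared genes around them (small points), by the distance of each gene's start from the SEMA3C start in Mb; 4 neighbouring genes are drawn without a name, and dashed lines mark 2-fold. SEMA3C is highest at 0.97 and 1.11, and SEMA3A and SEMA3D lie below 0 in both clones.

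Class 6 semaphorins, which span the membrane and are ligands of A-group plexins, were the class with the highest median ratios. Over SEMA6A, SEMA6B and SEMA6C the median, which is the value of SEMA6C, was 0.59 in clone 1 and 0.80 in clone 2. With SEMA6D, which passed the floor only through the clones, it was 0.79 and 1.11. SEMA6D had 13.8 counts in clone 1 and 19.3 in clone 2 and was listed at 0 in control. Values were rounded to 0.01 per kb before deposit, so 0 means under 0.0428 normalized counts for a gene of this length, and no fold is given. The mean of SEMA6D over the 3 groups was 11.0 counts. It is a PLXNA1 ligand known from heart development. The gene (ENSG00000137872) spans 590.1 kb of chromosome 15, 47184101 to 47774228, plus strand, the longest member. Its closest compared neighbour, MYEF2, had 361.4, 330.9 and 187.7 counts, while DUT and its antisense gene DUT-AS1 had log2 ratios of -0.12 to 0.20. The median of the 20 nearest compared genes was 0.12 in clone 1 and 0.21 in clone 2.

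SEMA6A, a ligand of PLXNA2 and PLXNA4, had 39.0 counts in clone 1, 52.6 in clone 2 and 19.1 in control. The log2 ratios were 1.00 and 1.42; the first was short of 1 by less than the second decimal, and without the added count the folds were 2.05 and 2.76. The yardstick at this count ends at 1.05, between them. The gene (ENSG00000092421) lies on chromosome 5, 116443555 to 116574823, minus strand. Of the 20 genes nearest it, 17 were above control in clone 1, with a median of 0.25, and 14 in clone 2, with a median of 0.30. COMMD10 beside it had 338.6, 385.8 and 288.0 counts. SEMA6A was 0.75 above that neighbour median in clone 1 and 1.12 in clone 2, at places 3 and 2 from the highest of the 21 genes. The overlapping antisense gene SEMA6A-AS1 had 22.2, 18.7 and 17.4 counts.

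SEMA6C had 75.6, 87.3 and 49.8 counts in clone 1, clone 2 and control, with log2 ratios of 0.59, inside the yardstick, and 0.80, beyond its end at 0.63. The gene (ENSG00000143434) lies on chromosome 1, 151131685 to 151146631, minus strand. Its neighbours had medians of -0.13 and -0.15, and SEMA6C was the highest of the 21 genes in both clones. SEMA6B had 29.4, 33.0 and 32.0 counts, log2 ratios of -0.12 and 0.04, both inside the yardstick. SEMA6B was therefore the class 6 member that did not stand above control in clone 1.

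Class 4 semaphorins, membrane ligands of B-group and other plexins, were below control in clone 1 in each of the 5 compared members, with a median of -0.36, and in 4 of 5 in clone 2, with a median of -0.19; of all compared genes, 50.7% and 50.4% were below. SEMA4D, the ligand of PLXNB1 also known as CD100 on lymphocytes, had 113.6 counts in clone 1, 88.5 in clone 2 and 152.6 in control. Its log2 ratios were -0.42 and -0.78, and the second lay beyond the yardstick at -0.50. SEMA4B had 154.7, 174.5 and 199.4 counts, with ratios of -0.36 and -0.19. SEMA4C, the ligand of PLXNB2, had 140.3, 153.1 and 157.2 counts, and SEMA4F had 73.2, 73.2 and 85.7. SEMA4B, SEMA4C and SEMA4F were within the yardstick in both clones.

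SEMA4G had 7.56 counts in clone 1, 18.4 in clone 2 and 13.8 in control. It was the class 4 member above control in clone 2, at 0.39, and its 20 neighbours on chromosome 10 had a median of 0.25 there, against -0.14 in clone 1. MRPL43, on the opposite strand, overlaps SEMA4G and had 118.1, 149.5 and 110.2 counts, so without strand their reads could not be told apart. SEMA4A was below the floor, with 2.73, 3.00 and 7.37 counts. SEMA5A, a class 5 semaphorin and below the floor as well, had 6.05, 8.59 and 6.65 counts, and SEMA5B had less than 1 count in every group. SEMA7A, the single class 7 gene, had 469.9, 422.2 and 429.6 counts, log2 ratios of 0.13 and -0.025.

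Among the receptors, the A-group plexins held the lowest ratio of the family. PLXNA2, a receptor for class 6 semaphorins and, with neuropilins, for class 3, had 18.6 counts in clone 1, 6.34 in clone 2 and 43.1 in control. Its log2 ratios were -1.17 and -2.59, and that of clone 2 to clone 1 was -1.42, so the 3 groups were well apart. Both ratios lie beyond the yardstick at -1.01 for genes of 10 to 50 counts. The gene (ENSG00000076356) spans 222.1 kb of chromosome 1, 208022242 to 208244384, minus strand. The 20 compared genes nearest it had medians of -0.04 and -0.03. Counted from the highest of the 21 genes, PLXNA2 stood at place 21 in clone 1 and 20 in clone 2, where a neighbour was lower still. PLXNA4, a close relative, was below the floor and had 5.73 counts in clone 1, 2.46 in clone 2 and 10.8 in control, folds of 0.53 and 0.23. The floor on the mean of the 3 groups let SEMA6D in and kept PLXNA4 out, so it favours genes that are higher in both clones.

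PLXNA1, a partner of neuropilins in class 3 signalling and the most transcribed A-group plexin per kb, had 184.5, 156.7 and 186.3 counts in clone 1, clone 2 and control, with log2 ratios of -0.01 and -0.25. PLXNA3, on the X chromosome, had 23.3, 40.0 and 29.0 counts, with ratios of -0.31 and 0.45, both inside the yardstick. LAGE3 overlaps it on the opposite strand and had 27.4, 28.9 and 22.8 counts. The A group was therefore mixed: its most transcribed member was near control in clone 1, and its scarce members differed in sign in clone 2.

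B-group plexins, receptors of class 4 semaphorins, were below control in both clones in all 3 members, where 50.7% and 50.4% of all compared genes were below. Exceptions under other settings were PLXNB1 in clone 2, at 0.0009 with median-of-ratios rescaling, and PLXNB2, at 0.03 and 0.07 less its neighbours' median. PLXNB2 had 186.1, 198.4 and 201.5 counts in clone 1, clone 2 and control, and PLXNB1, the SEMA4D receptor, 89.7, 105.5 and 107.0. Their log2 ratios were between -0.25 and -0.02. PLXNB3, also bound by SEMA5A, had 39.4, 38.7 and 55.6 counts, with ratios of -0.49 and -0.51. All 3 genes were inside the yardstick. PLXNB3 overlaps SRPK3 on its own strand (14.5, 6.83 and 14.1 counts) and PLXNB3-AS1 on the other.

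PLXNC1, the receptor of SEMA7A and the sole C-group plexin, had 11.0 counts in clone 1, 36.5 in clone 2 and 14.5 in control. Clone 2 alone was high: its log2 ratio to control was 1.27 and to clone 1 was 1.65, while clone 1 against control was -0.38. The first of these lies beyond the yardstick's end at 1.05. The gene (ENSG00000136040) lies on chromosome 12, 94148577 to 94307675, plus strand, and its 20 nearest genes had a median of 0.11 in clone 1 and of 0.06 in clone 2. Opposite-strand genes overlap it. CEP83 among them had 157.9, 173.5 and 149.8 counts, and a noncoding gene without a symbol had 61.7, 37.4 and 55.1, the reverse order of PLXNC1 in the clones. PLXND1, the receptor of SEMA3E, had 124.9, 149.5 and 100.1 counts, log2 ratios of 0.32 and 0.57, both inside the yardstick. PLXND1 and its ligand SEMA3E thus had the same order of groups, clone 2 above clone 1 above control. SEMA3C, SEMA6A, SEMA6C and SEMA6D had this order too, so it is not particular to the pair. With 3 means this is a description.

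Both neuropilins were below control in both clones, as were 50.7% of all compared genes in clone 1 and 50.4% in clone 2. NRP2, co-receptor for SEMA3F and for VEGFC, had 137.0 counts in clone 1, 142.9 in clone 2 and 215.1 in control. The clones were close to each other, at log2 ratios to control of -0.65 and -0.59, beyond the yardstick at -0.50. NRP2 (ENSG00000118257) lies on chromosome 2, 205681990 to 205798133, plus strand, among genes with medians of -0.06 and 0.05. It was the lowest of the 21 genes in clone 2 and the third from the lowest in clone 1. NRP1, co-receptor for SEMA3A and VEGFA, had 683.5, 535.5 and 715.6 counts. Its log2 ratio was -0.07 in clone 1 and -0.42 in clone 2, the second beyond the yardstick at -0.35. Of the 21 genes there on chromosome 10 (33177492 to 33336262, minus strand), NRP1 was the lowest in clone 2 and at place 17 from the highest in clone 1.

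Set against clone 1, clone 2 had levels of 2-fold or more above at PLXNC1 and SEMA4G, 2 of the 27 members, and below at PLXNA2, 1 of 27. The shares past these limits were 1.05% and 0.933% of all compared genes, and 0.926% and 0.758% of protein-coding ones. SEMA4G had 18.4 counts in clone 2 and 7.56 in clone 1, a log2 ratio of 1.18. SEMA3G, PLXNA3 and SEMA3F followed at 0.86, 0.76 and 0.69. For clone 2 against clone 1, the 20 nearest genes had medians of 0.38 at SEMA4G, 0.37 at SEMA3G and 0.36 at SEMA3F. They were 0.06 at PLXNA3, -0.05 at PLXNC1 and -0.04 at PLXNA2. Less its neighbours' median, SEMA4G was at 0.80, short of 2-fold, and PLXNC1 at 1.70.

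The ratios of the genes around each member were set beside its own. The members lie on 12 chromosomes. In clone 2 the genes around PLXNB1, SEMA3B, SEMA3F and SEMA3G on the short arm of chromosome 3 had medians of 0.34, 0.27, 0.17 and 0.29, while the members themselves had log2 ratios of -0.02, -0.17, -0.03 and 0.34. PLXNB1, SEMA3B and SEMA3F were thus 0.36, 0.44 and 0.20 below the genes around them, and SEMA3G 0.05 above. In clone 1 the neighbour medians at these 4 genes were between -0.08 and -0.03. For SEMA3C, SEMA6C, SEMA6D, PLXNC1, PLXNA2, NRP2 and SEMA4D, neighbour medians were between -0.15 and 0.21 in the 2 clones. The part of such regional shifts in any member's value was not tested.

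**Figure D4:**
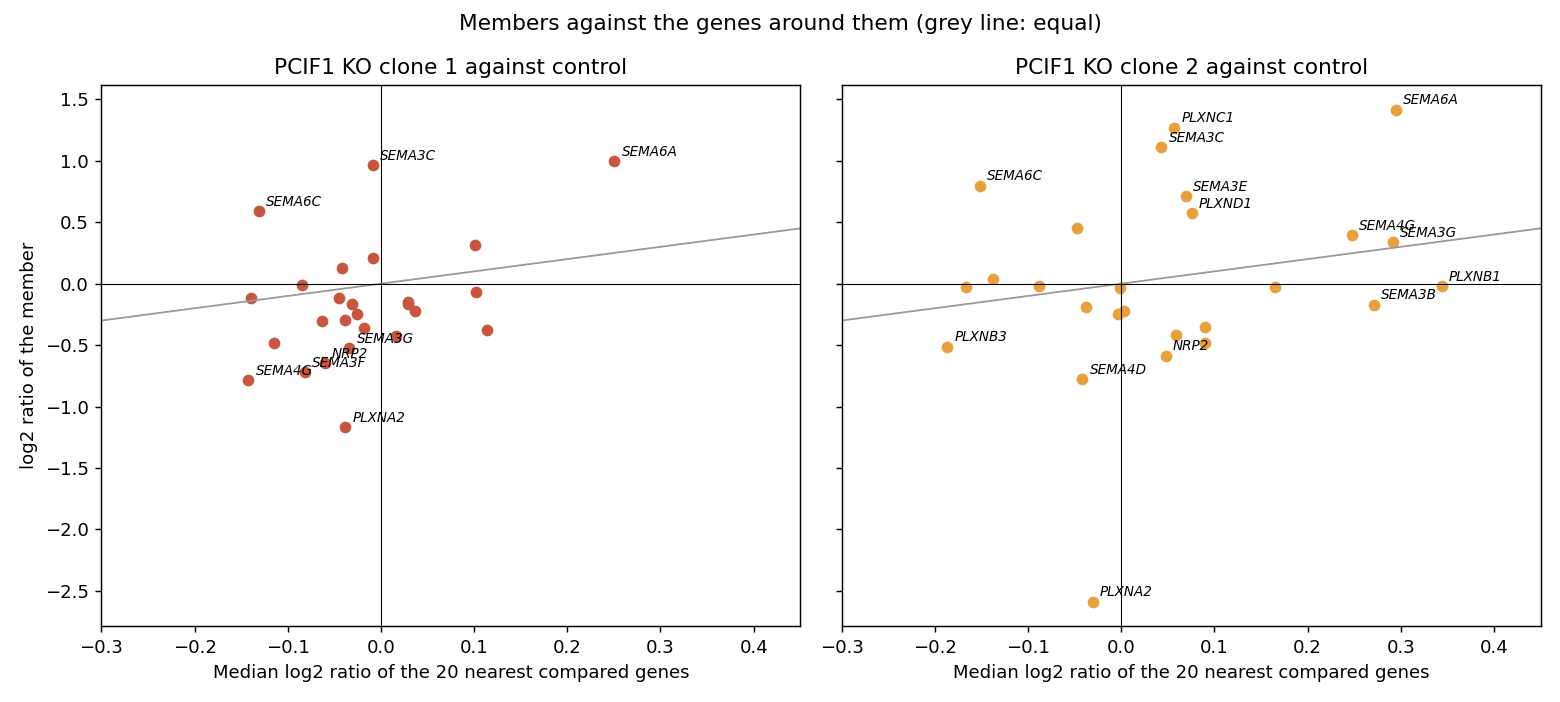
Log2 ratio to control of each of 26 compared members (vertical) against the median log2 ratio of the 20 nearest compared genes (horizontal), for clone 1 (left) and clone 2 (right); SEMA6D is left out and the grey line marks equality. Most neighbour medians lie near 0, SEMA6A sits among raised neighbours in both clones, and PLXNB1 and SEMA3B lie below their neighbours in clone 2.

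Other genes of the pathway were taken from lists written by role. Of 17 co-receptors, VEGFs and adhesion partners, 11 were compared. Their median was 0.01 in clone 1, where 6 were above control, and -0.22 in clone 2, where 3 were; of all compared genes, 50.7% and 50.4% were below control. The placental growth factor gene PGF, whose product binds neuropilins, had 321.3 counts in clone 1, 420.8 in clone 2 and 186.9 in control, log2 ratios of 0.78 and 1.17, and was the single list member past 2-fold on that scale, in clone 2, where 3.34% of all compared genes were that much higher. VEGFC, with 153.6, 128.7 and 137.1 counts per kb, and the receptor kinase gene MET, with 78.2, 68.7 and 92.3 per kb, were the highest in control. Of genes named after their values were seen, the adhesion gene L1CAM, whose product joins NRP1 as a SEMA3A co-receptor, had 111.0, 78.8 and 157.8 counts, a log2 ratio of -0.99 in clone 2 and a fold of 0.4995 without the added count, and the VEGFC receptor gene FLT4, below the floor, had 2.39, 16.3 and 0.71.

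Of 35 intracellular partners and effectors, 33 were compared and none was 2-fold off in either clone. Their median was -0.02 in clone 1, where 18 of 33 were below control, and -0.24 in clone 2, where 23 were, against 50.7% and 50.4% of all compared genes. The actin-severing cofilin gene CFL1, with 321.2, 289.8 and 373.1 counts per kb, and RAC1, with 94.0, 83.6 and 95.4, were the highest in control. The ratio furthest from 0 was that of MRAS in clone 2 (-0.87; 28.7, 18.6 and 35.01 counts in clone 1, clone 2 and control), a small GTPase gene. MRAS, FARP2, RHOA and LIMK1 were named after their values were seen. The highest ratios were those of FARP2, an exchange factor bound by A-group plexins (0.64 and 0.62), and of RHOA in clone 2 (0.66), against neighbour medians of 0.31 and 0.21 at FARP2 and 0.25 at RHOA. LIMK1, the kinase that inactivates cofilin, had log2 ratios of -0.61 and -0.71.

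In 3 other families of guidance cues and receptors, single genes also stood past 2-fold, where 2.27% of all compared genes were that much higher and 1.32% lower in clone 1, and 3.34% and 1.90% in clone 2. Ephrins and EPH receptors (17 of 22 compared) had a median of 0.07 in clone 1 and of -0.01 in clone 2, slits and robos (5 of 7) -0.05 and 0.10, and netrins and their receptors (8 of 14) -0.25 and -0.13. At least 2-fold higher were EPHA3, EPHA5, EPHA7 and SLIT2 in clone 1, and EPHA7, EFNB1 and ROBO1 in clone 2; NTNG2 was 2-fold lower in clone 1. EPHA7, a receptor kinase for ephrins, had 346.1, 379.1 and 114.2 counts in clone 1, clone 2 and control. Highest per kb in control were EPHA2 (162.0, 138.2 and 192.8 in clone 1, clone 2 and control) and EFNB2, ROBO1 and ROBO4, and RGMB (204.5, 156.6 and 161.1) and NTN4. SLIT2, a ligand of ROBO receptors, had 64.1, 30.9 and 25.1 counts, and ROBO1 had 544.7, 807.3 and 375.9. The 20 compared genes nearest ROBO1 had a median of 0.06 in clone 1 and of 0.42 in clone 2. EPHA3, like SEMA6D, was listed at 0 in control. It had 30.2 counts in clone 1, through which alone it passed the floor, and 0.33 in clone 2. The floor kept out EPHB6, named after its values were seen, which was listed at 0 in clone 1 and had 0.37 counts in clone 2 and 11.6 in control. No difference between these families and the semaphorins was tested.

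**Figure D5:**
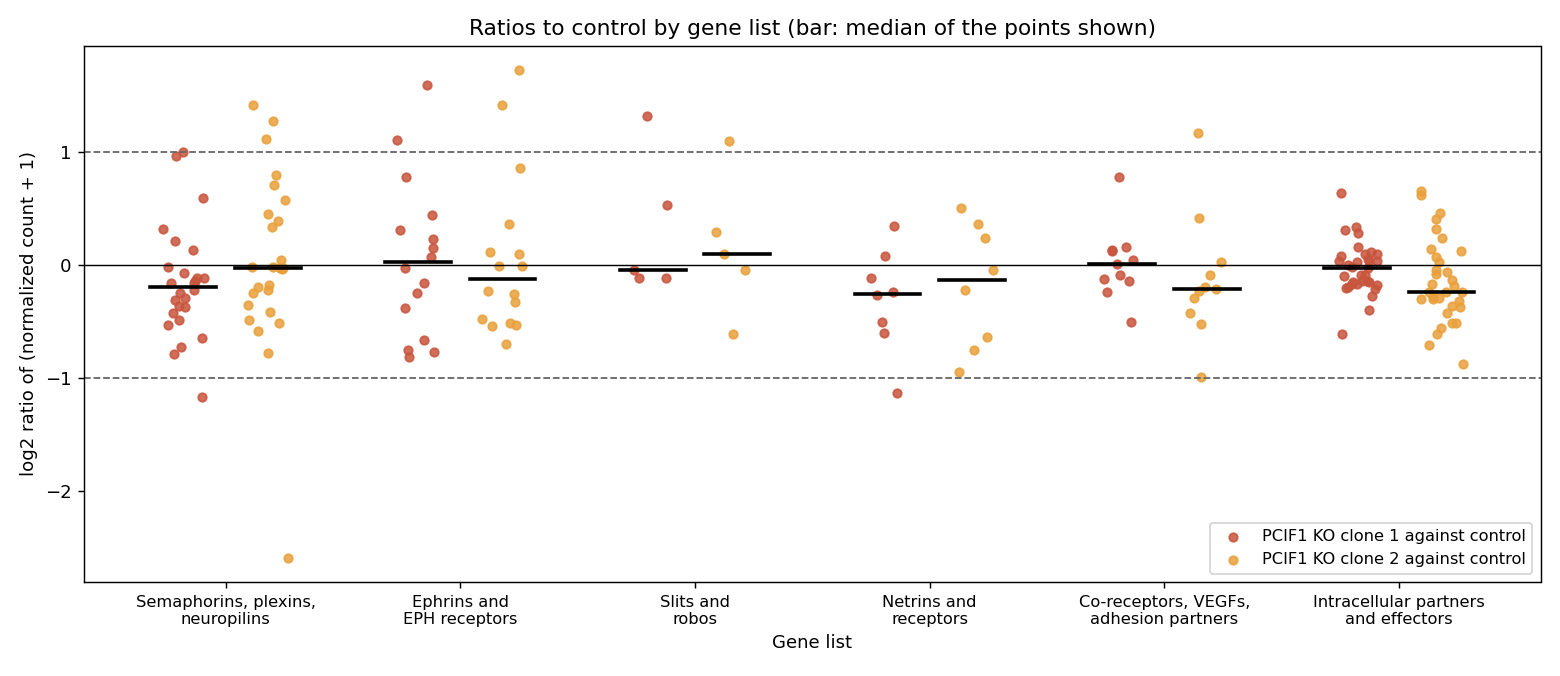
Log2 ratio to control of the compared genes of 6 lists in clone 1 (left points of each pair) and clone 2 (right points); bars are medians of the points shown, dashed lines mark 2-fold, and SEMA6D and EPHA3, listed at 0 in control, are left out. The points of 26 semaphorins, plexins and neuropilins reach from PLXNA2 at -2.59 to SEMA6A at 1.42.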

How the data were processed

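PRO-seq libraries of 9 samples in 3 groups were used as 1 table. Per the file headers, the authors deposited mean normalized counts per kb, a signal already scaled, divided by gene length and averaged over the replicates of a group. The header has a name more than the cells of a line, and the missing cell was taken to be the gene symbol, because the next cell matches GENCODE exon lengths (equal for 64.4% of matched identifiers). Per the submitters' processing notes, the tools were cutadapt 1.14, DESeq2, featureCounts and Bowtie 1.2.2, and the builds GRCh38.p12, hg38 and dm3; their roles are not stated there. The sources used here do not say whether scaling used the spike-in, which strand setting was used or how deep each library was; the series' design text gives an average depth only.

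Identifiers were matched to GENCODE release 44 (GRCh38); 582 had no match. Values were multiplied by length to give counts per gene, and log2 ratios used a pseudocount of 1 and a floor of 10 on the mean count. With 1 mean per group the moderated test planned for separate libraries could not be made. Neighbours are the 10 nearest compared genes on each side, by gene midpoint. The members and lists were chosen with earlier results of these data known. Every compared member was named; in other lists, genes past 2-fold and the 2 highest per kb in control. Alternatives were other pseudocounts, floors and scalings, values per kb, and ratios less their neighbours' median. Python 3.11.15, numpy 2.4.6, pandas 2.3.3 and matplotlib 3.10.9 were used.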

Additional observations from a re-analysis of the deposited data

How the results depend on the processing

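Of the settings tried, the median ratios of the members moved by less than 0.1 under all of them. Counts past 2-fold are small, so a change of 1 gene moves them; the 2-fold counts that moved were these. With a floor of 50 counts, which leaves 18 members, 0 were higher and 0 lower in clone 1, 1 higher and 0 lower in clone 2, and 0 and 0 in clone 2 against clone 1. On the scale per kb, which leaves 17, the counts were 0 and 0, 1 and 0, and 0 and 0. Both leave out SEMA6D, SEMA6A, PLXNC1 and PLXNA2 by construction, and SEMA3C remains. With no floor, 2 members were lower in clone 1 and 3 in clone 2, as SEMA4A, and in clone 2 also PLXNA4, enter. With a pseudocount of 0.5, and likewise with median-of-ratios rescaling, 2 were higher in clone 1, since SEMA6A passes. With a pseudocount of 5, or after subtracting neighbour medians, 1 was higher in clone 2 than in clone 1. That member was PLXNC1, as SEMA4G fell short of 2-fold. Single-gene ratios less their neighbours' median were not in the following tally. Of 510 single-gene ratios recomputed under the other settings, 5 moved by more than the robust standard deviation of clone 2 against clone 1 at like count. This standard deviation was 0.424 at 10 to 50 counts, 0.231 at 50 to 200 and 0.175 at 200 to 1000, a narrower limit than the yardstick. The 5 were 4 ratios of SEMA6D and that of PLXNA2 in clone 2, at -2.09 with a pseudocount of 5. The value of SEMA6D depends on the pseudocount because control is listed at 0. No ratio past 2-fold changed sign. Of smaller ratios, PLXNB1 in clone 2 came to 0.0009 with median-of-ratios rescaling, against -0.02, and SEMA4F in clone 2 against clone 1 came to -0.02 with quantile normalization, against 0.00. Subtracting neighbour medians shifted some members by more than the limit above, such as SEMA3B by 0.27 and PLXNB1 by 0.34 in clone 2. It changed the sign of PLXNB2 in both clones (to 0.03 and 0.07), PLXNA1 in clone 1 (0.07) and SEMA7A in clone 2 (0.14). In clone 2 against clone 1 it changed that of SEMA3B (-0.31), PLXNB1 (-0.12), NRP2 (-0.04) and SEMA4F (-0.02). Of all genes past 2-fold, 63.3% in clone 1 and 63.8% in clone 2 were higher than control, and 49.4% and 49.5% with no floor, 53.2% and 51.2% on the scale per kb, with its own floor, and 70.0% and 72.7% with a floor of 50. No paired analysis was possible because the table gives 1 mean per group, and for the same reason leaving out single replicates was not run.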

Other observations

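The order of lines in the deposited table is neither by identifier nor by level, and the sources used here do not say what it is. The first 182 lines are all below control in both clones, and lines 187 to 508 are all above control in both. NRP2 stands at line 15 of the first stretch, and SEMA6D and SEMA3C stand at lines 325 and 414 of the second. NRP1, SEMA3E, SEMA4D, SEMA6A, PLXNA2 and SEMA3F follow at lines 685, 721, 743, 1096, 1349 and 1411. These 9, all among the 27 compared members, lie in the first 1631 lines, which hold 8.83% of all compared genes. The cut is set where the next long stretch of equal signs begins, at line 1632, so it was drawn from the same values. The other 22 of the 31 members lie from line 13416 to line 58193. PLXNC1, at line 57766, and SEMA6C, at line 58193, are not among the first lines although their ratios to control are 1.27 and 0.80 in clone 2.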
